A study of Mus musculus with 24 samples.

Results

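The hedgehog genes described here are 9 symbols, chosen by name from the 32040 genes of the deposited tables. They are the ligands Dhh, Ihh and Shh, the receptor Ptch1, the transducer Smo, the transcription factors Gli1, Gli2 and Gli3, and the ligand-binding membrane protein Hhip. Each was followed in RNA of supporting cells, the somatic lineage of the fetal gonad that becomes Sertoli cells in the testis and granulosa cells in the ovary. The XX cells, labelled pre-granulosa, came from mice with the Enh8-mCherry transgene, and the XY cells, labelled Sertoli, came from the SOX9-IRES-GFP line. Both were isolated from gonads by fluorescence-activated sorting at 4 embryonic (E) stages, which were E11.5 and E12.5, followed by E13.5 and finally E15.5, with 3 libraries in each of 8 groups and 24 in all. No treatment is named, and how embryos were pooled is not given in the sources used here. Sex, mouse line and fluorophore changed together, so what is called an XX minus XY difference is a difference between those 2 kinds of sorted library.

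In hedgehog signalling a secreted ligand binds Patched at the surface of a receiving cell, which releases Smoothened from inhibition and lets GLI proteins act on transcription. Ptch1, Gli1 and Hhip are themselves transcribed in response to the signal in many tissues, so their RNA is widely used as a readout of it. In the fetal testis Dhh is the ligand made by Sertoli cells, and its known receivers are the Leydig, peritubular and other cells around the cords. In the ovary Dhh and Ihh are known as granulosa cell products of later follicle growth, which act on the theca lineage.

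Total counts ran from 11275251 to 37256881 per library. A count of 3, taken as the floor below which a gene is not told from absent, equals 0.0774 to 0.26 counts-per-million (CPM, computed on library sizes scaled by TMM). Defining markers went with the labels. The summed level of 8 Sertoli markers was 1517 to 8940 CPM in XY libraries and 81.1 to 335 CPM in XX libraries. That of 7 pre-granulosa markers was 438 to 1480 CPM in XX libraries and 3.87 to 124 CPM in XY libraries. Sox9, the gene of the XY reporter line, is among the 8 Sertoli markers. In XY E11.5 it had a mean of 1706 CPM where the sum was 1517 to 2665 CPM, so that sum is not independent of the sort. The XX E11.5 libraries stood apart in what else they held. Their 4 summed erythroid markers were 3178 to 25450 CPM, against at most 1181 CPM in any other library, and their 5 immune markers summed to 57.1 to 177 CPM, against at most 31.4 CPM. The labels of XX E13.5 replicate 1 disagree, its stage field saying E12.5 and its other fields E13.5. It was kept at E13.5, and the 3 calls below that are lost without it are the XX steps from E13.5 to E15.5 of Dhh, Shh and Hhip.

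Of the 9 genes, 8 passed the filter on low counts and were tested, and Ihh did not. Dhh, Ptch1, Smo, Gli2, Gli3 and Hhip were over the floor in all 24 libraries, Gli1 in 15, Shh in 10 and Ihh in 6. A gene was called changed at a Benjamini-Hochberg adjusted p under 0.05 over the 16190 genes tested, in edgeR's quasi-likelihood test across all 24 libraries. All adjusted p below come from that test unless another is named. The labels number the libraries as replicates without saying that they came from separate litters or animals, so the p-values measure the spread between these libraries, which may be partly technical.

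Dhh, the ligand gene of Sertoli cells, had the largest difference between the sexes of the 8 tested genes at every stage. In XY cells it rose 17-fold between E11.5 and E12.5, was not called changed at E13.5 and was 1.5-fold lower at E15.5, while in XX cells its mean was between 0.626 and 3.60 CPM. Dhh lies on mouse chromosome 15 (chr15:98891152-98898540, minus strand, GRCm38). The 250 bases before its start are shown with those of Ihh, its paralog near the floor (chr1:74945315-74951672, minus strand), because for these 2 ligands the RefSeq start is also the GENCODE M21 gene start and no annotated exon overlaps the window. They are given 5′ to 3′ on the gene's strand, from the RefSeq promoter table of build GRCm38.p6, at chr15:98898541-98898790 and chr1:74951673-74951922. Capitals mark GGGCGG, the GC box bound by SP factors, or its reverse complement.
Dhh: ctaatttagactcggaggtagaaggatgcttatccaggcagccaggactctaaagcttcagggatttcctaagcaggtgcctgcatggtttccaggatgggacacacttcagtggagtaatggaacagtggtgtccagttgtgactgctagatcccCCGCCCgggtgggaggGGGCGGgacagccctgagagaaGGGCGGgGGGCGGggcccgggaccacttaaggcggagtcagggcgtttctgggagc
Ihh: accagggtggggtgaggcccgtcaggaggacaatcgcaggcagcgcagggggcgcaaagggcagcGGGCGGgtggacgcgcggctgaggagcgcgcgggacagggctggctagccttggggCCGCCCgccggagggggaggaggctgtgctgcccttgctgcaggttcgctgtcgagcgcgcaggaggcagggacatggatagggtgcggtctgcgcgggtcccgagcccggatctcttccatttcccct
The Dhh window holds 4 GC boxes, all within 94 bases of the start, and the Ihh window holds 2. GGGCGG on either strand occurs in 32.7% of the 32851 promoters of the table in the same 250-base window. This motif was chosen after 3 others had been searched on both strands and found in none of the 7 hedgehog genes that matched the table. Those were GACCACCCA (GLI), held by 0.225% of all promoters, ACAATGG (SOX), held by 3.02%, and CAAGGTCA (NR5A), held by 1.33%. Over the whole 300-base entries, which include 50 bases after the start, the 7 genes again held none of these 3. GGGCGG was found there in 6 of the 7 genes, all but Smo, and in 35.7% of all promoters, so it is not particular to the ligands. A match or its absence describes the letters of this window only.

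In XY E11.5 cells Dhh was at 88.3, 115 and 61.4 CPM in replicates 1, 2 and 3. At E12.5 it was at 1597, 1461 and 1445 CPM, so that the lowest E12.5 library was far above the highest E11.5 library. The step was 4.09 ± 0.221 (log2 difference ± SE, adjusted p = 6.11e-12). At E13.5 the libraries were at 1330, 1451 and 1450 CPM, and overlapped those of E12.5. That difference was -0.09 with a 95% interval of -0.50 to 0.32. At E15.5 they were at 920, 939 and 968 CPM, all below E13.5, with a log2 difference of -0.58 ± 0.195 (adjusted p = 0.0379). This last call was fragile. It was lost on leaving out any of the 6 libraries but XY E13.5 replicate 1 (adjusted p 0.0768 to 0.0994), with no filter on low counts (0.0524) and on deposited TPM with limma (0.065 to 0.337), though the direction was the same in each.

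In XX cells Dhh was at 5.56, 3.302 and 1.95 CPM at E11.5, at 1.36, 1.46 and 1.98 CPM at E12.5, at 1.41, 1.41 and 1.51 CPM at E13.5, and at 0.521, 0.866 and 0.490 CPM at E15.5. The E11.5 and E12.5 libraries overlapped by the narrow margin of 1 library of each. The step was called at -1.19 ± 0.29 (adjusted p = 0.00361), but not when only those 6 libraries were fitted (0.13). With a library left out it ran from -1.456 to -0.751, with adjusted p up to 0.0489. XX E11.5 replicate 1, the highest in Dhh, also had a Sertoli sum of 335 CPM against 162 and 165 CPM in replicates 2 and 3. What part this has in its Dhh value was not tested. The E15.5 libraries were all below those of E13.5 (-1.22 ± 0.436, adjusted p = 0.0447), a call lost in 10 of the other fits. They include the fit with the replicate number as a block (0.05) and those without any of the 6 libraries but XX E15.5 replicate 2 (0.0843 to 0.198). Schwann cells are another known source of Dhh. The sum of 3 Schwann markers (Erbb3, Cdh19 and Foxd3) in XY libraries was 9.74 to 12.9 CPM at E11.5, 111 to 125 CPM at E12.5, 118 to 136 CPM at E13.5 and 38.4 to 48.0 CPM at E15.5, and in XX libraries it was 0.816 to 14.9 CPM. Nearly all of the XY rise was in Erbb3, a receptor of other cells too, with a mean of 9.07 CPM at E11.5 and 111 CPM at E12.5. Cdh19 had 2.02 and 4.89 CPM, and Foxd3 was at 0 in all 3 XY E12.5 libraries. The part of such cells in the Dhh values was not tested.

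The XX minus XY difference of Dhh over the 4 stages was -4.60 ± 0.246, -9.88 ± 0.301, -9.93 ± 0.308 and -10.57 ± 0.331 in that order, with adjusted p from 9.91e-12 down to 3.39e-16. As folds these are 24.2, 939, 977 and 1520 times higher in XY. On the scale of deposited TPM, which is per length, Dhh ranked 3424 of 32040 genes in XY E11.5 cells and then 160, 163 and 259 at the next stages, and between 12097 and 14314 in XX cells. The number of cells with the RNA and the amount per cell cannot be told apart in these bulk libraries. Dhh overlaps Rhebl1 on the same strand, and its counts were not whole in 24 of 24 libraries. Rhebl1 was at 2.42 to 6.88 CPM (group means), at or above the level of Dhh in XX cells from E12.5 on, so small Dhh values in XX cells depend on how reads were divided. It also overlaps the antisense gene Gm49442, and the use of strand is not stated.

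**Figure D1:**
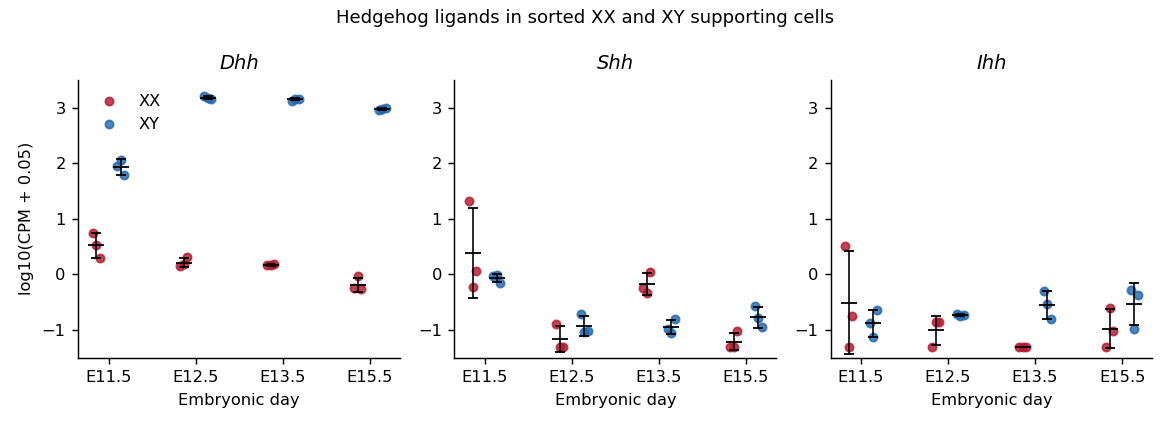
Levels of the 3 ligand genes by embryonic day in XX (red) and XY (blue) cells, as log10 of CPM plus 0.05. Each point is 1 library, and bars give the mean and SD of 3 libraries on that log scale; Dhh in XY cells reaches 1597 CPM at E12.5, and Shh and Ihh are near the floor in nearly all libraries after E11.5.

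The other ligands were scarce. Shh, best known from limb and neural tube, was at 20.4, 0.550 and 1.10 CPM in XX E11.5 replicates 1, 2 and 3 and at 0.870, 0.929 and 0.653 CPM in XY E11.5. The XX E11.5 level rests on replicate 1. With it the XX minus XY difference was called at 3.16 ± 0.839 (adjusted p = 0.00475), and without it the difference was -0.017 (adjusted p = 0.987). Replicate 1 was also the library in which Ihh was highest, with 60 counts (3.21 CPM) against 0 and 2 counts in the other two. From E11.5 to E12.5 Shh fell in both sexes to the floor, by at least 57.4-fold in XX with replicate 1 included (6.44-fold without it) and by at least 6.03-fold in XY. The XX call held in all fits run. The XY call was lost without XY E12.5 replicate 2 or 3 (adjusted p = 0.0705 and 0.0653) and on TPM with no filter.

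Shh was above the floor again in all 3 XX E13.5 libraries, at 0.519, 0.415 and 1.06 CPM. The XY E13.5 libraries were at or under it, which makes XX at least 5.07-fold higher there. This call (adjusted p = 0.0358) was lost without XX E13.5 replicate 3 or any XY E13.5 library (0.059 to 0.112). It was also lost with no filter on low counts (0.0604) and on TPM with no filter (limma, 0.684). The XX steps into and out of E13.5 were called as well (adjusted p = 0.0296 and 0.0475), and were lost too. The step into E13.5 was lost without XX E12.5 replicate 2 or 3 or XX E13.5 replicate 3 (0.0889 to 0.0954). The step out of it was lost without any of the 6 libraries (0.0566 to 0.122). Both steps were also lost with no filter (0.0524 and 0.0801) and on TPM with no filter (limma, 0.743 and 0.746). Ihh was not tested. Its XY means were 0.0967 CPM at E11.5, 0.263 CPM at E13.5 and 0.304 CPM at E15.5, and it was listed at 0 in all 3 XX E13.5 libraries.

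Ptch1, the receptor that holds Smo inactive and a common readout of ligand reception, was higher in XY cells at every stage, and on the count scale no step between stages was called. In XX cells its mean was 27.2 ± 12.47, 22.7 ± 7.39, 24.8 ± 5.36 and 24.3 ± 1.11 CPM at the 4 stages (SD, n = 3). In XY cells it was 92 ± 26.3, 100.4 ± 9.9, 83.6 ± 2.81 and 77.8 ± 1.64 CPM. The highest XX library was at 40.9 CPM and the lowest XY library at 62.8 CPM, both at E11.5, so the sexes did not overlap. The XX minus XY difference was -1.76 ± 0.26, -2.15 ± 0.263, -1.76 ± 0.262 and -1.68 ± 0.263, with adjusted p of 1.83e-05, 5.83e-07, 6.49e-06 and 9.75e-06. It was called in every fit run at all 4 stages. The test of whether the sex difference changed with stage gave an adjusted p of 0.604. The XY difference between E11.5 and E12.5 was 0.13 with an interval of -0.39 to 0.64, over which Dhh rose 17-fold in the same libraries.

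The deposited TPM of Ptch1 gave another picture of that XY step. The mean fell from 47.1 ± 15.1 TPM at E11.5 to 25.3 ± 2.43 TPM at E12.5, a difference of -0.82 on log2(TPM + 1) with a limma adjusted p of 0.036 (0.0436 with 0.1 added, and 0.0558 over all genes above 0). TPM divides counts by transcript length, so the ratio of count to TPM, relative to the median gene of the library, follows the length that the authors' quantification assigned. For Ptch1 this ratio rose from 1.59 ± 0.104 to 2.75 ± 0.136 in XY cells between E11.5 and E12.5, and was 2.35 ± 0.138 at E13.5 and 1.96 ± 0.0596 at E15.5. Of 7224 genes that could be compared in that step, 2 had a larger change of the ratio. In XX cells it was between 1.74 and 2.11 at all stages. For Dhh it was between 1.28 and 1.31 in XY cells. GENCODE M21 lists 5 protein-coding Ptch1 transcripts, of 809 to 7725 bases, at chr13:63508328-63573598 (minus strand). Which of them the reads came from was not tested, and the ratio was looked at only after the count and TPM results had been seen to differ.

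Smo, which passes the signal on inside the cell, changed sides between stages. At E11.5 it was at 62.5, 74.0 and 67.9 CPM in XX cells and 51.3, 73.0 and 58.2 CPM in XY cells, which overlapped, with a difference of 0.16 and an interval of -0.13 to 0.46. At E12.5 it was at 77.2, 95.8 and 60.6 CPM in XX and at 37.5, 39.3 and 40.2 CPM in XY. XX was 2-fold higher there (0.997 ± 0.143, adjusted p = 3.69e-06). From E13.5 on the order was the opposite, with 42.4, 37.9 and 38.2 CPM in XX against 52.6, 55.4 and 65.2 CPM in XY (-0.55 ± 0.143, adjusted p = 0.00205), and a difference of -0.46 ± 0.143 at E15.5 (adjusted p = 0.00719). Every XX library was above every XY library at E12.5 and below every XY library at E13.5 and E15.5. In XY cells Smo fell from E11.5 to E12.5 (-0.64 ± 0.142, adjusted p = 0.000725) and rose to E13.5 (0.57 ± 0.142, adjusted p = 0.00861), and in XX cells it fell from E12.5 to E13.5 (-0.98 ± 0.143, adjusted p = 4.25e-05). These calls held in all fits run.

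Hhip, which binds hedgehog ligands at the cell surface and limits their reach, was low and higher in XX cells at the middle stages. At E11.5 it was at 5.77, 3.85 and 2.40 CPM in XX and 1.55, 2.04 and 5.88 CPM in XY, which overlapped. At E12.5 it was at 5.71, 4.77 and 9.76 CPM in XX and 1.07, 1.34 and 1.74 CPM in XY (2.28 ± 0.444, adjusted p = 0.000145). At E13.5 it was at 3.78, 3.82 and 3.78 CPM in XX and 0.387, 0.717 and 0.608 CPM in XY (2.70 ± 0.486, adjusted p = 5.39e-05). The sexes did not overlap at these stages, and both calls held in every fit. At E15.5 the means were 1.40 ± 0.251 and 0.713 ± 0.321 CPM, and the difference of 0.99 was not called (adjusted p = 0.0928). Hhip fell in XX from E13.5 to E15.5 (-1.45 ± 0.462, adjusted p = 0.0251), a call lost without any of the 6 libraries but XX E15.5 replicate 2 (0.052 to 0.113) and on TPM. In XY it fell from E11.5 to E12.5 (-1.19 ± 0.438, adjusted p = 0.0279), but XY E11.5 replicate 3 alone was high, and without it the difference was -0.45 (adjusted p = 0.381). That call was also lost without XY E12.5 replicate 1 or 2 (0.0836 and 0.0622), on TPM (0.124 to 0.233) and when only those 6 libraries were fitted (0.0778).

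**Figure D2:**
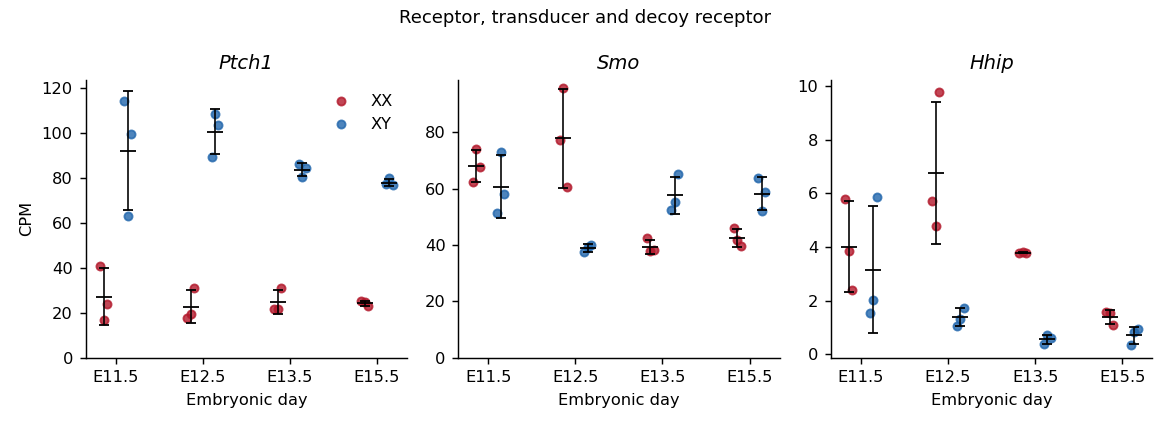
CPM of Ptch1, Smo and Hhip by embryonic day, each point 1 library, with the mean and SD of 3 libraries; XX red, XY blue, linear axes with a separate scale for each gene. Ptch1 in XY cells lies at or above 62.8 CPM and in XX cells at or below 40.9 CPM, while Smo is higher in XX at E12.5 and lower at E13.5 and E15.5.

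The GLI genes fell in XY cells as Dhh rose. Gli1, the activator that is itself a target of the pathway, was at 2.45, 4.75 and 7.57 CPM in XY E11.5 libraries and at or under the floor in all 3 XY E12.5 libraries. It was thus at least 36.3-fold lower at E12.5 (adjusted p = 8.99e-06). In XX cells it fell as well, from 3.10, 0.917 and 6.09 CPM to a mean of 0.379 ± 0.197 CPM (-3.14 ± 0.725, adjusted p = 0.00242). Both of these falls were called in every fit run. Gli1 in XX E12.5 was at least 2.8-fold above XY, but this call (adjusted p = 0.0485) was lost without XX E12.5 replicate 2 or 3 or any XY E12.5 library (0.0682 to 0.124), with the replicate block (0.052), with no filter (0.0639) and on TPM (0.114 to 0.573). At E15.5 Gli1 was higher in XY (0.660 ± 0.255 CPM against 0.111 ± 0.192 CPM, -2.59 ± 1.02, adjusted p = 0.0291), which was lost without XX replicate 1 or 3 or XY replicate 2 (0.0849 to 0.142) and on log2(TPM + 1) (0.41 and 0.512). The XY rise from E13.5 to E15.5 (adjusted p = 0.0308) was lost without XY E13.5 replicate 2 or 3 or XY E15.5 replicate 2 (0.111 to 0.131) and on TPM (0.105 to 0.714). Gli1 at chr10:127329882-127341974 overlaps Arhgap9 on the opposite strand, and Arhgap9 in XY cells was at 0.220, 1.67, 5.49 and 10.8 CPM at the 4 stages. Reads of the pair cannot be told apart without strand, and its part in the late Gli1 values was not tested. Several marker sums of XY cells were also higher at E15.5 than at E13.5. They went from 21.9 to 27.2 up to 43.7 to 57.5 CPM for interstitial, from 2.39 to 2.75 up to 12 to 12.7 CPM for peritubular, from 5.09 to 9.72 up to 34.4 to 58.9 CPM for germ cell and from 4.26 to 18.1 up to 49.7 to 77.1 CPM for erythroid markers. The endothelial sum was 18.5 to 19.7 and then 25.2 to 26.5 CPM. The Schwann sum was lower at E15.5, as given with Dhh, and the fetal Leydig, immune, Sertoli and pre-granulosa sums overlapped. What part the cells of these markers have in the late XY values of Gli1 and Gli2 was not tested.

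Gli2, the main activator in most receiving cells, was higher in XX at E12.5 and E13.5 and was not called different at E11.5 and E15.5. It was at 10.6, 4.999 and 18.8 CPM in XX E11.5 and at 7.04, 9.27 and 7.76 CPM in XY E11.5, with a difference of 0.51 (interval -0.24 to 1.25). At E12.5 the XX libraries were at 11.6, 14 and 7.47 CPM and the XY libraries at 0.747, 1.81 and 0.822 CPM (3.28 ± 0.413, adjusted p = 6.64e-07). At E13.5 they were at 3.26, 3.36 and 4.08 CPM and at 0.277, 0.199 and 0.536 CPM (3.34 ± 0.483, adjusted p = 3.52e-06). At E15.5 the means were 1.08 ± 0.238 and 1.30 ± 0.27 CPM, with an interval of -1.19 to 0.74 on the difference. In XY cells Gli2 fell from E11.5 to E12.5 (-2.82 ± 0.408, adjusted p = 6.7e-06), then was called lower at E13.5 (adjusted p = 0.0266) and higher at E15.5 (adjusted p = 0.0112). The last came with the higher marker sums given with Gli1, and both later calls were lost on TPM. The first was also lost without XY E12.5 replicate 2 or XY E13.5 replicate 1 or 2 (0.0753 to 0.213), and the other without XY E13.5 replicate 2 (0.0631). In XX cells it fell from E12.5 to E13.5 (-1.63 ± 0.379, adjusted p = 0.00242) and again to E15.5 (-1.69 ± 0.436, adjusted p = 0.0071), a call lost on log2(TPM + 1) (0.0937, and 0.134 over all genes).

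Gli3, whose product acts mainly as a repressor in the absence of signal, changed its order between the sexes and then diverged. At E11.5 it was lower in XX, at 23.1, 16.4 and 33.6 CPM against 38.2, 47.2 and 63.3 CPM (-1.03 ± 0.207, adjusted p = 0.000436; 0.051 when only those 6 libraries were fitted). At E12.5 XX was higher, at 24.8, 23.2 and 26.1 CPM against 13.7, 17.1 and 19.7 CPM (0.55 ± 0.209, adjusted p = 0.0266; 0.0832 without XY E12.5 replicate 1). At E13.5 the difference was 1.22 ± 0.212 (adjusted p = 3.53e-05) and at E15.5 it was 1.61 ± 0.214 (adjusted p = 9.11e-07), with 40.2, 42.0 and 50.02 CPM in XX against 14.8, 17.0 and 11.45 CPM in XY. The sexes did not overlap at any stage. In XY cells Gli3 fell 2.94-fold from E11.5 to E12.5 (-1.56 ± 0.21, adjusted p = 2.56e-06) and no later step was called. In XX cells no single step was called, with differences of 0.44 and 0.40 for the later ones and adjusted p of 0.112 and 0.166. Both were called when only the 6 libraries of the step were fitted (0.00487 and 0.0169). Over all fits run, the first of these differences ran from 0.024 to 0.519. Deposited TPM of Gli3 in XX had means of 5.68 ± 0.514 (E12.5), 5.79 ± 0.529 (E13.5) and 7.82 ± 1.01 (E15.5). The ratio of count to TPM, described above for Ptch1, went from 3.56 ± 0.181 to 4.33 ± 0.0218 in the first step. It was 4.26 ± 0.123 after the second. What part assigned length has in the XX rise was not tested.

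**Figure D3:**
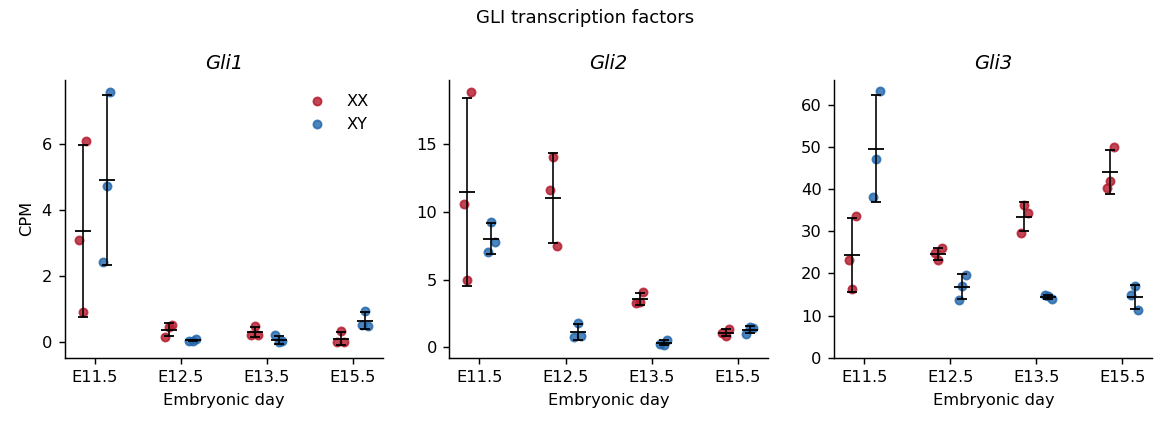
CPM of Gli1, Gli2 and Gli3 by embryonic day, each point 1 library, with the mean and SD of 3 libraries; XX red, XY blue, linear axes with a separate scale for each gene. All 3 are lower at E12.5 than at E11.5 in XY cells, and Gli3 in XX cells lies above XY from E12.5 on.

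The GLI genes fell in XY cells between E11.5 and E12.5. Sums of the interstitial, peritubular, fetal Leydig and pre-granulosa markers were lower in this step too, but not those of all marker lists. The summed level of 7 interstitial markers was 422 to 540 CPM in XY E11.5 libraries and 28.3 to 34.5 CPM at E12.5, and 6 of the 7 were at or above 10 CPM at E11.5 against 1 at E12.5. None of the 7 was at 0 in all libraries of a group. In XX cells the same sum was 152 to 455 CPM over all stages. The sum of 5 peritubular markers in XY was 31.1 to 90.6 CPM at E11.5 and 2.66 to 2.85 CPM at E12.5, and that of 5 fetal Leydig markers was 265 to 337 CPM and then 58.9 to 81.4 CPM. The endothelial sum was 16.7 to 22.6 CPM and then 14.8 to 16.5 CPM, the germ cell sum was 4.57 to 6.94 and then 4.53 to 5.89 CPM, and the immune and erythroid sums overlapped between the 2 stages. The pre-granulosa sum was 72.5 to 124 and then 11.6 to 13.4 CPM. Higher at E12.5 were the Schwann sum, as given with Dhh, and the Sertoli sum, at 1517 to 2665 and then 7641 to 8074 CPM. Interstitial cells are known receivers of the ligand, and Nr2f2, which is on both the interstitial and the target list, fell in this step from 105 to 7.70 CPM (-3.78 ± 0.283, adjusted p = 9.82e-10). The part of such cells in the Gli1, Gli2, Gli3 and Hhip values was not tested. In XX E11.5 libraries the peritubular sum was 168, 48.1 and 550 CPM in replicates 1, 2 and 3, and Gli1, Gli2 and Gli3 were also lowest in replicate 2 and highest in replicate 3. The interstitial sum (357, 230 and 455 CPM) and the erythroid and immune sums had this order too. The endothelial sum (13.6, 24.1 and 33.8 CPM) and the fetal Leydig sum (279, 216 and 266 CPM) did not. Nor did the Schwann, germ cell, Sertoli and pre-granulosa sums.

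Counts of called genes are to be read against how many genes were called in all. Between the sexes at E11.5, 4 of the 8 tested hedgehog genes were called where 42% of all tested genes were, 1 of them in favour of XX (21.4% of all genes) and 3 of XY (20.6%). At E12.5, 7 of 8 were called against 62.1% of all genes, 5 in favour of XX (30.5%) and 2 of XY (31.5%). At E13.5, 7 of 8 were called against 66.1%, 4 in favour of XX (32.8%) and 3 of XY (33.3%). At E15.5, 5 of 8 were called against 69.4%, 1 in favour of XX (34.9%) and 4 of XY (34.4%). The median difference over the 8 was -0.20, 0.78, 1.68 and -1.07 at the 4 stages, against 0.02, -0.01, 0.01 and 0.05 over all genes. In the step to E12.5 the calls in XX were 3 against 34% of all genes, all lower (17.3%; 16.7% of all genes rose). In XY 7 were called in this step against 51.9%, 1 higher (27.1%) and 6 lower (24.8%). From E12.5 to E13.5, 3 were called in XX against 31.7%, 1 higher (14.2%) and 2 lower (17.4%), and 2 in XY against 16.6%, 1 higher (8.02%) and 1 lower (8.62%). From E13.5 to E15.5, 4 were called in XX against 25.6%, all lower (12.8%), and 3 in XY against 21.3%, 2 higher (as 1863 of 16190 genes were) and 1 lower (9.79%). In the test of whether the sex difference varied over the stages 6 were called, against 70.1% of all genes. The shares are near the background in several of these comparisons, and the number of members is small.

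**Figure D4:**
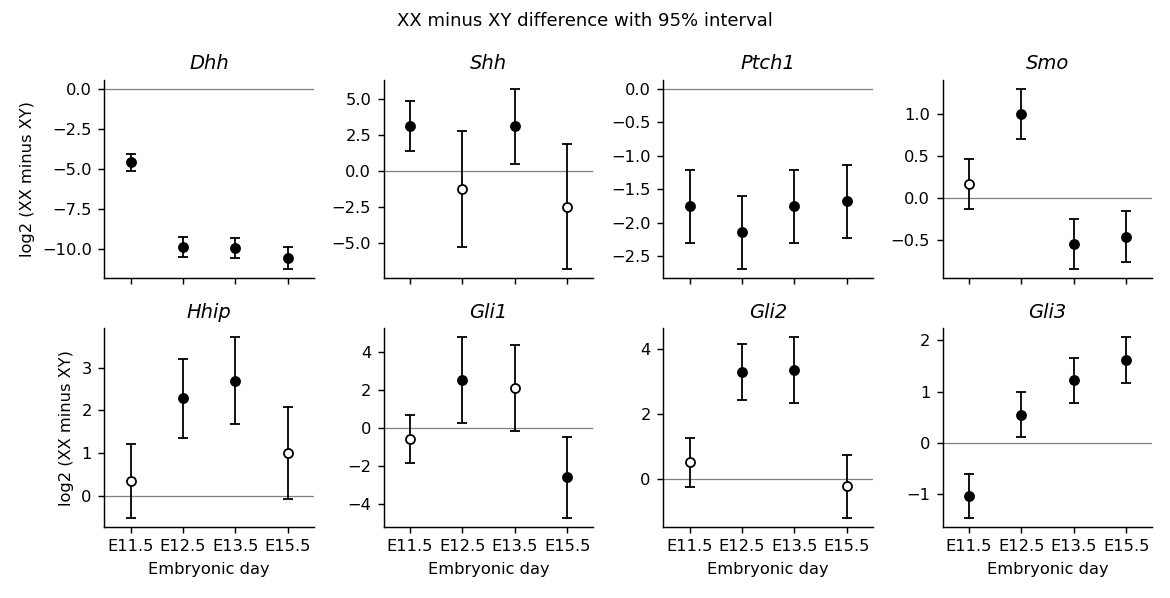
XX minus XY difference (log2, edgeR) by embryonic day for the 8 tested genes, with 95% intervals; filled circles passed an adjusted p under 0.05 and open circles did not, and each panel has its own scale. Dhh and Ptch1 lie below 0 at all stages, Gli3 moves from -1.03 to 1.61, and the wide intervals of Shh and Gli1 belong to groups at or near the floor.

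On the per-length scale the genes kept a wide spread. In XY E12.5 cells Dhh was at 799 ± 63.2 TPM, Ptch1 at 25.3 ± 2.43, Smo at 15.1 ± 0.255, Gli3 at 3.16 ± 0.471, Gli2 at 0.300 ± 0.0794, Hhip at 0.287 ± 0.0945 and Gli1 at 0.0467 ± 0.0379 (SD, n = 3). Gli2 and Hhip did not differ beyond their spread. In XX E12.5 cells the order began with Smo at 34.5 ± 7.74 TPM, then Ptch1 at 9.29 ± 4.23, Gli3 at 5.68 ± 0.514, Gli2 at 3.01 ± 1.05, Hhip at 1.98 ± 1.07, Dhh at 0.803 ± 0.422 and Gli1 at 0.267 ± 0.179. Gli2 and Hhip were within each other's spread. Every Ptch1 library (6.51 to 14.15 TPM) was above every Gli3 library (5.36 to 6.27 TPM). A ligand was above 10 TPM in all XY libraries (Dhh) and, among XX libraries, in E11.5 replicate 1 (Shh, 12.1 TPM).

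A list of 29 other pathway genes by role, of which 28 passed the filter, had 11 called between the sexes at E11.5 and 18 at each later stage, where 42, 62.1, 66.1 and 69.4% of all genes were called. Those higher in XX were 6, 14, 12 and 10, where the shares of all genes were 21.4, 30.5, 32.8 and 34.9%. The median difference was 0.07, 0.50, 0.34 and 0.16. The ligand-binding co-receptors Boc, Gas1, Cdon and Lrp2 were all 4 higher in XX at E12.5. Boc had 103 ± 9.39 CPM in XX there, against 7.83 ± 0.938 CPM in XY (3.71 ± 0.194, adjusted p = 7.3e-13), and Gas1 had 99.2 ± 29.1 against 6.61 ± 2.79 CPM (3.91 ± 0.288, adjusted p = 3.41e-10). Neither was called different at E11.5, with 38.8 and 34.4 CPM for Boc and 93.4 and 72.8 CPM for Gas1. In XY they fell from E11.5 to E12.5, with log2 differences of -2.13 and -3.46 (adjusted p = 5e-09 and 3.5e-09), the step in which Dhh rose. Lrp2 was at 0.219 CPM or less at E12.5 in both sexes and higher in XY at E11.5.

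Of 6 genes for ligand release, 4, 5, 5 and 5 were called at the 4 stages, 1, 2, 3 and 2 of them higher in XX. Of all tested genes 42, 62.1, 66.1 and 69.4% were called at these stages, and 21.4, 30.5, 32.8 and 34.9% were called higher in XX. Hhat, which attaches palmitate to the ligand, was higher in XY at all 4 stages, from 15.3 against 11.1 CPM at E11.5 to 20.8 against 10.4 CPM at E15.5 (-1.005 ± 0.141, adjusted p = 2.04e-06). Disp1, which exports it, was higher in XY at E13.5 and E15.5 (34.2 against 17.4 CPM at E15.5). Scube2, which helps carry it, was higher in XY up to E12.5 (6.95 against 2.62 CPM) and higher in XX after that (10.1 against 0.320 CPM at E15.5, adjusted p = 3.05e-09). Its relative Scube3 was higher in XY at E11.5 and in XX at E12.5 and E13.5 (9.23 against 5.07 CPM at E13.5, adjusted p = 0.00025), and Scube1 was higher in XY at E12.5 and E15.5 (8.38 against 34 CPM at E15.5). Disp2, a relative of Disp1, was called higher in XX at all 4 stages and was at or near 0 in XY. Its XX mean was 4.46 CPM at E11.5, 0.239 CPM at E12.5, 0.899 CPM at E13.5 and 0.111 CPM at E15.5. The XX E15.5 mean was under the mean floor of those libraries (0.198 CPM), and the sexes overlapped there. Inside the cell, Sufu, which restrains GLI proteins, was higher in XY at E13.5 and E15.5 (39.1 against 13.9 CPM at E15.5, -1.49 ± 0.19, adjusted p = 4.96e-07). Prkaca, a kinase subunit that favours the GLI repressor forms, was higher in XX at all 4 stages (205 against 21.7 CPM at E12.5). Csnk1a1, of the same list, was called higher in XY from E12.5 on (-0.387, -0.182 and -0.357). Gsk3b was called higher in XX at every stage but E12.5. The 13 genes listed for inside the cell and the cilium had 4, 7, 7 and 7 called, in order of stage. Those higher in XX were 4, 6, 4 and 3, to be read against the shares of all genes given above. Of 5 tested genes that hedgehog raises in other tissues, Bcl2 and Nr2f2 were higher in XX from E12.5 on and Mycn was higher in XY at E11.5, E13.5 and E15.5, while Foxf1 and Foxl1 were called at no stage.

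**Figure D5:**
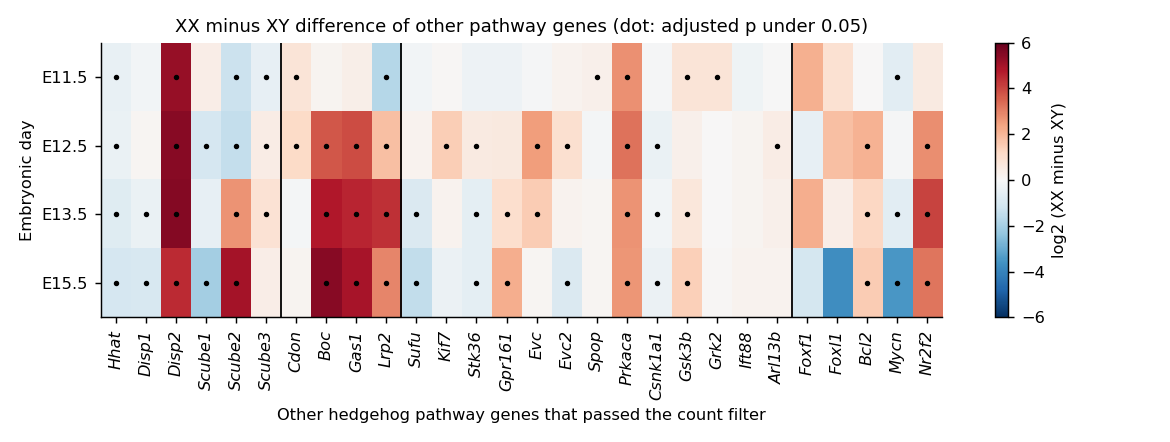
XX minus XY difference (log2, edgeR; colour, red higher in XX) of the 28 tested other pathway genes in columns, by embryonic day in rows; a dot marks an adjusted p under 0.05 and vertical lines part the 4 roles. The block from Cdon to Lrp2 is red from E12.5 on apart from Cdon at the later stages, and Disp2 is at or near 0 counts in XY, so its colour has no exact size.

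By Pearson's r of log2(CPM + 1) over the 8 group means, the 5 genes most like Dhh among 11166 were Tesc, Spry4, Sowahb, Jsrp1 and Mapk4, with r of 0.997 to 0.998. Tesc had means of 29.3 ± 9.88 and 227 ± 23.8 CPM in XY cells at E11.5 and E12.5, and a mean of at most 1.43 CPM in XX. For Ptch1 they were Sox9, Gm11837 and St3gal4 (0.995 each). Sox9, the Sertoli factor whose reporter line supplied the XY cells, had means of 1706 ± 465 and 2018 ± 185 CPM in XY cells at those stages, and of 53.3 to 126 CPM in XX. The highest of these, at E11.5, rests on replicate 1 (226 CPM) and is 76.6 CPM without it. For Gli1 they were Cxcl12, Nefm and Foxp2 (0.971 to 0.994), and for Hhip Syt13, Eno3 and Btbd11 (0.971 to 0.977). These are descriptions over 8 points that share the sex and stage differences of many genes. On TPM 3 of the 5 genes for Dhh, 1 of 3 for Gli1 and none of 3 for Ptch1 or Hhip were the same, and over the 24 libraries 2 of 5, 2 of 3, 1 of 3 and 1 of 3.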

How the data were processed

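Polyadenylated RNA of about 40000 sorted cells per sample was made into amplified cDNA libraries, per the labels' protocols. The authors deposited expected counts and TPM per gene symbol for 24 libraries. The build was mm10, per the submitters' processing notes. The aligner, counting program, annotation and use of strand are not given in the sources used here. Of the deposited count values 17.5% were not whole, and they were rounded. Groups follow the labels. Genes were filtered with filterByExpr, libraries scaled by TMM and 1 mean fitted per group (robust quasi-likelihood test, two-sided, edgeR 4.0.16, R 4.3.3), with 16 residual degrees of freedom and Benjamini-Hochberg adjustment. The 11 comparisons are XX minus XY at 4 stages, 3 steps in each sex and an F test of the sex-by-stage interaction. A fold against a group at or under 3 counts in every library is a lower bound computed against that floor, as the mean over the group's libraries. Floors cover counting error only, and the labels describe no molecular identifiers. Alternatives used DESeq2 1.42.0 and limma 3.58.1 on log2(TPM + 1) and log2(TPM + 0.1), other filters, a replicate block, only the compared libraries, and each library left out. The script was tested on simulated data. Coordinates and overlaps come from GENCODE M21. The genes named are the 9 members, fixed lists of pathway and marker genes, and the genes most like a member with at least 10 CPM in the highest group. Members and lists were chosen with earlier results of these data known. No protein sequence was used here. 3 genes of the lists are not reported here and are left out of their counts and sums.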

Additional observations from a re-analysis of the deposited data

Results flagged for a closer look

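The XX minus XY difference varied over the 4 stages for 6 of the 8 tested hedgehog genes, by edgeR's quasi-likelihood F test of the sex-by-stage interaction over all 24 libraries. The adjusted p was 1.22e-10 for Dhh, 7.45e-07 for Gli3, 2.99e-06 for Smo, 2.28e-05 for Gli2, 0.00779 for Hhip and 0.0106 for Gli1. The Gli1 call was lost on log2(TPM + 1) with limma (0.476, and 0.563 over all genes above 0), and the other 5 were called in every fit run. Of all genes tested 70.1% were called in this test. For Dhh the XY excess widened from E11.5 on, for Gli3 the order of the sexes turned after E11.5, and for Smo it turned after E12.5. For Gli2 and Hhip the XX excess was called at E12.5 and E13.5 only.

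The E11.5 libraries stood apart in some of their marker sums. XX E11.5 held more erythroid and immune RNA than any other library. Interstitial sums in XY E11.5 were 422 to 540 CPM, above those of every later XY library. In XX E11.5 they were 230 to 455 CPM, which overlapped later XX libraries (152 to 248 CPM at E12.5 and 173 to 270 CPM at E15.5). The test was therefore repeated on E12.5 to E15.5 alone, an alternative chosen after seeing the data. The adjusted p was then 4.51e-07 for Smo, 9.99e-06 for Gli2, 0.00108 for Gli3, 0.00247 for Gli1, 0.0237 for Hhip and 0.0346 for Dhh. All 6 were called in it.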

How the results depend on the processing

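Of 88 tests of a hedgehog gene, 51 were called, 12 were called only in some other fit, and 25 in no fit (lowest adjusted p 0.0546). The XX minus XY calls of Dhh, Ptch1, Smo, Gli2 and Hhip held in every fit, as did the Gli3 calls at E13.5 and E15.5. Of 702 values under other settings 613 kept their sign and side of the threshold, 47 lost the call, 12 gained one and 30 changed sign, none of them where the main value was called. Of 672 values with a library left out these numbers were 582, 49, 8 and 33, and 1 called value changed sign (Shh at E11.5).

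With at least 10 counts in every library only Ptch1, Smo and Gli3 were tested. Called genes were then 2, 3, 3 and 3 for XX minus XY at the 4 stages, 0, 1 and 0 for the XX steps, 2, 1 and 0 for the XY steps and 2 for the interaction. Limma on TPM called 1 gene in the XY step to E13.5 and 0 in that to E15.5 at each pseudocount and with all genes, and in the XX step to E15.5 it called 1 with 0.1 added and 0 with 1 added. No filter gave 2 in that XX step, and only the compared libraries gave 2 for XX minus XY at E11.5. With a library left out, the XX step to E15.5 had 1 to 4, and the XY steps to E13.5 and E15.5 had 1 to 2 and 0 to 3.

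Sign changes were mostly of values near 0, and their cause was not tested. On log2(TPM + 1), with or without the filter, the XY step of Ptch1 to E12.5 was -0.815, that to E15.5 was 0.166 and its XX step to E15.5 was 0.081. Dhh in the XX step to E13.5 was 0.128, Gli1 in the XY step to E13.5 was -0.023, Gli2 in the XX step to E12.5 was 0.038, and Gli3 in the XY step to E15.5 was -0.045. With 0.1 added these 7 were -0.836, 0.171, 0.091, 0.268, -0.194, 0.074 and -0.061. Shh in the XY step to E13.5 was 0 on TPM without the filter and 0.084 with the replicate block. Gli3 in the XX step to E12.5 was -0.02 with DESeq2 and with at least 10 counts, -0.019 with DESeq2 size factors and -0.008 with only the compared libraries. Gli3 in the XY step to E15.5 was -0.003 with DESeq2, -0.002 with its size factors and -0.011 with no filter.

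With a library left out, the XX minus XY difference at E11.5 ran from -0.017 to 3.711 for Shh, from -0.057 to 0.864 for Gli2 and from -0.021 to 1.182 for Hhip. The XX step to E12.5 ran from -0.602 to 0.168 for Ptch1, -0.015 to 0.301 for Smo, -0.414 to 0.506 for Gli2 and -0.199 to 0.328 for Gli3. The XX step to E13.5 ran from -0.292 to 0.072 for Dhh, -0.069 to 0.459 for Ptch1 and -0.699 to 0.215 for Gli1, and the XX step to E15.5 from -0.136 to 0.164 for Ptch1. The XY step to E12.5 ran from -0.158 to 0.232 for Ptch1, and that to E13.5 from -0.612 to 0.599 for Shh and -1.411 to 0.865 for Gli1. The XY step to E15.5 ran from -0.072 to 0.103 for Smo, -0.151 to 0.119 for Gli3 and -0.027 to 0.616 for Hhip.

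Same-numbered libraries correlated by more than 0.1 in 3 of 30 cases, and in 9 of 30 a library correlated best with its own number. Between the sexes at E11.5 the correlations were 0.11, 0.087 and 0.298 for replicates 1, 2 and 3. The counts over all comparisons cannot exclude pairing within a stage, because they also hold pairs across stages. With the replicate block, 4, 6, 7 and 5 genes were called between the sexes, 3, 3 and 3 in the XX steps, 7, 2 and 3 in the XY steps and 6 in the interaction.

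Over all genes, a fit of only the compared libraries called 2718 for XX minus XY at E11.5, where the full fit called 6803 of 16190. It called 1176 in the XX step to E12.5 (5505 in the full fit), 4317 in the XY step to E13.5 (2694) and 6111 in that to E15.5 (3448). The filter on low counts was applied anew in these smaller fits, so the genes tested were not the same 16190. The XX step to E15.5 had 4144 calls, but 2726 without XX E13.5 replicate 1 and 2540 without XX E15.5 replicate 3. The XY step to E13.5 had 1503, 1626 and 1606 without XY E12.5 replicate 2, XY E13.5 replicate 2 and XY E13.5 replicate 3. The floor of 3 counts limits what can be said of Shh, Ihh and Gli1, and Gli2 and Hhip in XY cells rest on few counts from E13.5 on.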
